A study of Bos taurus with 11 samples.

Results

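Matricellular and elastic fibre proteins were followed in mammary parenchyma, the epithelial ducts and their supporting tissue, of Holstein heifer calves raised on different amounts of milk replacer. The set held 10 genes, chosen with earlier results of these data known: FN1, TNC, POSTN, SPARC, THBS1, THBS2, ELN, FBN1, FBLN1 and FBLN2. Each had exactly 1 probe set annotated to its symbol alone, so all 10 were measured, out of 18444 genes and 26773 probe sets on the array. Elevated calves (n = 6) drank a mean of 8.4 L of milk replacer per day in 3 meals, for a metabolisable energy intake of 5.9 ± 0.2 Mcal per day (SE). Restricted calves (n = 5) drank 4 L per day in 2 meals, for 2.8 ± 0.2 Mcal per day. All calves were female, were fed the same replacer (28% protein, 15% fat), had starter grain from day 18 and were killed at 54 ± 2 days. The number of meals went with the amount fed and cannot be told apart from it. In a sixth restricted calf the gland had developed so little that no parenchyma could be dissected, so that group lacks its least grown gland.

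Matricellular proteins are secreted into the matrix but bear little load; they bind cells, collagens, growth factors and each other and tune adhesion, and many are made in quantity where tissue grows or is rebuilt. Fibronectin is drawn by integrins into fibrils on which other matrix proteins are laid down. Elastic fibres have a core of cross-linked elastin on a scaffold of fibrillin microfibrils, joined to neighbouring structures by fibulins. In the mammary gland these proteins are made mainly by stromal cells around the ducts and by cells of the fat pad and vessels, and ducts grow into that stroma before puberty.

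Levels are RMA values on a log2 scale as deposited, where a difference of 1 is a doubling of signal. The level of a probe set depends on its probes, so levels are compared between calves and never between genes. Array medians lay between 6.37 and 6.45, and the highest value in the table was 14.20. All 10 genes stood above the median of their array in all 11 calves. SPARC came closest to the top of the scale, with its highest calf 0.87 below the maximum of the table, a region where array signals are known to compress. Differences are elevated minus restricted, from limma across all 26773 probe sets with Benjamini-Hochberg adjustment and a threshold of 0.05.

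Of the parenchymal markers, 13 of 21 luminal epithelial and 13 of 15 fibroblast markers stood above the array median on every array. Restricted 2 and restricted 4 stood apart in tissue make-up: their adipocyte marker means were 10.57 and 10.02, against 7.20 to 8.93 in elevated calves and 8.27 to 8.65 in the other restricted calves. Over the adipocyte list 18 of 19 measured markers were lower in elevated calves, and 12 of 19 stood above the array median in all calves. For luminal markers, restricted 2 and restricted 4 had means of 6.86 and 8.22, against 8.63 to 9.48 in elevated calves and 8.94 to 9.10 in the other restricted calves. Elevated 5 had the highest skeletal muscle (7.05), endothelial (9.45) and smooth muscle and pericyte (8.72) means of the 11 calves. Skeletal muscle markers had higher means in elevated calves at 15 of 15 genes, with a list mean of 5.99 in elevated calves (5.35 to 7.05) and 5.30 in restricted calves (5.12 to 5.69). Luminal markers had higher means at 19 of 21, with a list mean of 9.12 in elevated and 8.43 in restricted calves, and 0 of either list passed the threshold in limma. At an unadjusted limma p under 0.05, 8 muscle markers were higher, as were 6 luminal markers, with 1 luminal marker lower. In the adipocyte list 9 were lower and 1 higher at that level, and 0 passed the threshold. Over all probe sets 5.33% were lower and 4.95% higher at that level, and 49.2% had a lower mean in elevated calves. Of the muscle markers, 1 of 15 stood above the array median in all calves. The part of all these marker lists in the results below was not tested beyond the adjustments for the adipocyte and luminal means. In such bulk tissue, fewer cells of a type and less RNA per cell cannot be told apart.

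Tenascin-C, periostin and fibronectin had lower means in elevated calves. For TNC all 6 elevated calves lay below every restricted calf, and for POSTN and FN1 5 of 6 did. The share of all probe sets with 5 of 6 elevated calves so placed was not counted, so these counts are description only. TNC averaged 0.588 times its restricted level, POSTN 0.741 times and FN1 0.883 times. SPARC and FBLN2 averaged 1.01 and 1.06 times their restricted levels. THBS1, ELN and FBN1 were highest in restricted 2 and restricted 4. In all, 8 of the 10 genes had a lower mean in elevated calves, where 49.2% of all probe sets did, and the median difference of the 10 was -0.27 against 0.0031 over all probe sets. None of the 10 passed the threshold in limma after adjustment (smallest adjusted p = 0.398), where 0.00747% of all probe sets passed as lower. At an unadjusted p under 0.05 there were 3 lower genes, TNC, POSTN and FBN1, and 0 higher ones, against 5.33% and 4.95% of all probe sets. The groups failed to overlap at 1 of the 10, TNC, where 0.751% of probe sets lay lower with no overlap. Some of the genes varied together across calves, so the 8 lower means are not 8 independent observations.

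**Figure D1:**
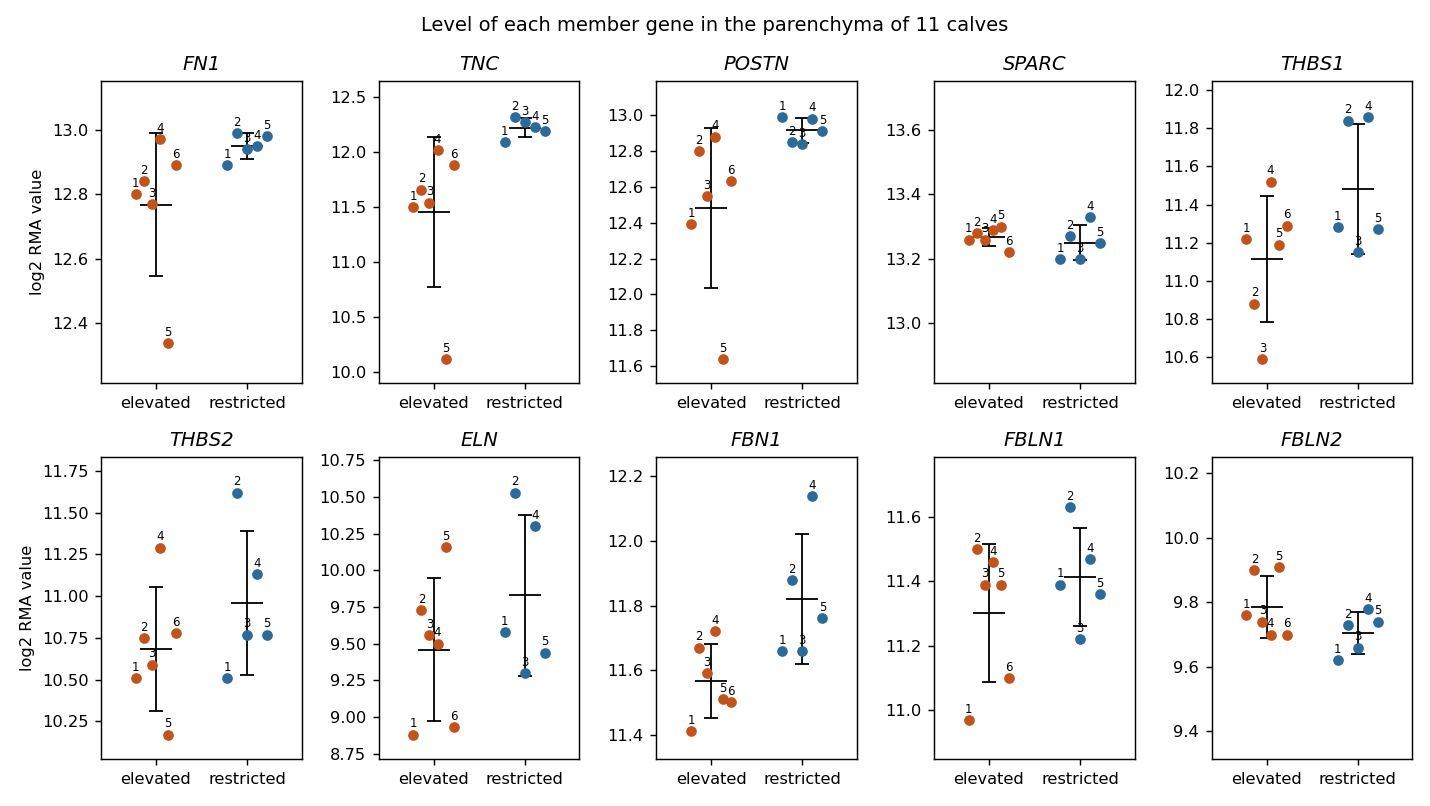
Log2 RMA value (vertical axes, each with its own range) of the 10 genes in elevated calves (left, orange, n = 6) and restricted calves (right, blue, n = 5); each numbered point is a calf, the long bar is the group mean and whiskers are 1 SD. All elevated calves lie below all restricted calves for TNC, with elevated 5 at 10.12, while the SPARC values span 13.20 to 13.33 over both groups.

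TNC encodes tenascin-C, a large multi-armed glycoprotein that loosens cell adhesion and, in the mouse embryo, surrounds the mammary bud in dense mesenchyme. In elevated calves its level was 10.12 at the lowest, 11.60 at the median and 12.02 at the highest. In restricted calves it was 12.09, 12.32, 12.27, 12.23 and 12.19. The groups did not overlap, although the top elevated calf came within 0.1 of the lowest restricted calf on the log2 scale, and the restricted calves were closely alike. The mean was 11.45 ± 0.68 (SD) over the 6 elevated calves, against 12.22 ± 0.09 (SD) over the 5 restricted calves. The log2 difference was -0.77 ± 0.28 (SE; 95% interval -1.38 to -0.15; limma adjusted p = 0.398). An exact two-sided permutation test of TNC alone, over the 462 ways of dividing the calves, gave p = 0.00433, the smallest this design allows, before any adjustment for the number of genes. The exact permutation p-values of the other members, given below, are likewise unadjusted. Elevated 5 widened both the difference and its error: without it the difference was -0.50 ± 0.11 (SE; limma adjusted p = 0.255). The remaining elevated calves averaged 11.72 ± 0.22 (SD over 5 calves).

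POSTN encodes periostin, a protein that binds fibronectin, tenascin-C and collagen and assists their assembly. Its level in elevated calves was 11.64 at the lowest, 12.59 at the median and 12.88 at the highest. In restricted calves it was 12.99, 12.85, 12.84, 12.98 and 12.91. Elevated 4 alone reached into the restricted range. Mean POSTN was 12.48 ± 0.45 (SD) over the 6 elevated calves, against 12.92 ± 0.07 (SD) over the 5 restricted calves. The log2 difference was -0.43 ± 0.19 (SE; 95% interval -0.85 to -0.02; limma adjusted p = 0.467; exact permutation p = 0.013). Elevated 5 held the lowest value, and without it the difference was -0.26 ± 0.10 (SE; limma adjusted p = 0.446).

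FN1 encodes fibronectin, whose fibrils carry binding sites for integrins, collagens and heparan sulphate. Elevated calves ranged from 12.34 through a median of 12.82 to 12.97, and restricted calves had 12.89, 12.99, 12.94, 12.95 and 12.98. As for POSTN, elevated 4 alone reached into the restricted range. The restricted calves spanned only 0.10 on the log2 scale, and the part of compression near the top of the scale in that span was not tested. The means of 12.77 ± 0.22 (SD) over the 6 elevated calves and 12.95 ± 0.04 (SD) over the 5 restricted calves differed by -0.18 ± 0.10 (SE; 95% interval -0.41 to 0.05; limma p = 0.114 unadjusted and 0.591 adjusted; exact permutation p = 0.026, unadjusted). Without elevated 5 the log2 difference was -0.09 ± 0.06 (SE; limma adjusted p = 0.662).

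THBS1 and THBS2 encode thrombospondins, which restrain vessel growth through the receptors CD36 and CD47; thrombospondin-1 also frees latent TGF-beta. THBS1 ran from 10.59 through a median of 11.20 to 11.52 in elevated calves and was 11.28, 11.84, 11.15, 11.86 and 11.27 in restricted calves. Restricted 2 and restricted 4 stood highest, and the other 3 restricted calves (11.15 to 11.28) lay within the range of elevated calves. THBS1 differed by -0.37 ± 0.19 (SE; 95% interval -0.78 to 0.04; limma adjusted p = 0.542; exact permutation p = 0.108). Without restricted 2 and restricted 4 the log2 difference of THBS1 was -0.12 ± 0.18 (SE).

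THBS2 ran from 10.17 through a median of 10.67 to 11.29 in elevated calves and was 10.51, 11.62, 10.77, 11.13 and 10.77 in restricted calves. The groups overlapped widely; restricted 2 was the highest calf and elevated 4 the next. The log2 difference was -0.28 ± 0.22 (SE; 95% interval -0.76 to 0.20; limma adjusted p = 0.697, exact permutation p = 0.268), and -0.01 ± 0.21 (SE) without restricted 2 and restricted 4.

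SPARC encodes osteonectin, a calcium-binding protein that accompanies collagen as it is secreted and laid down. Its values were nearly constant: 13.22, 13.27 and 13.30 for the lowest, median and highest elevated calf, and 13.20, 13.27, 13.20, 13.33 and 13.25 in restricted calves. The log2 difference of 0.02 ± 0.06 (SE) had a 95% interval of -0.11 to 0.14, equal to 0.928 to 1.1 times the restricted level, so a larger change in either direction lies outside the interval (limma adjusted p = 0.939, exact permutation p = 0.502). The compression near the top of the scale, given above, bears on this interval.

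**Figure D2:**
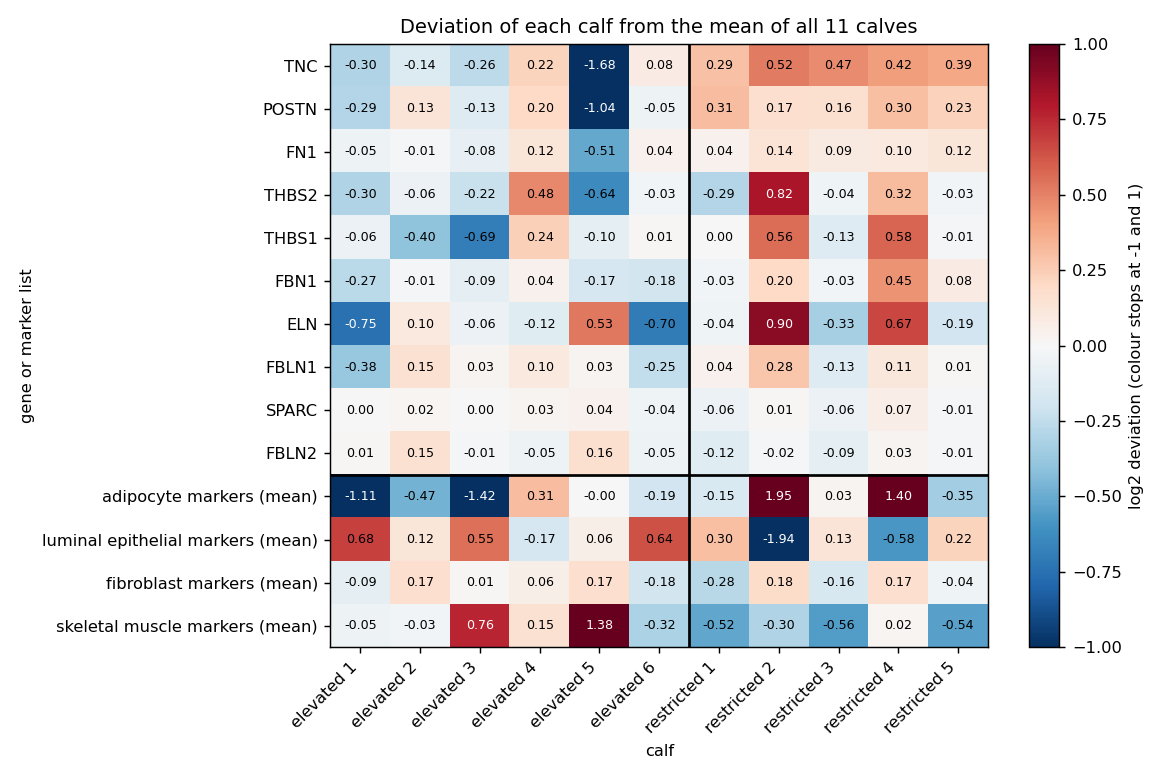
Deviation of each calf (columns, elevated to the left of the line and restricted to the right) from the mean of all 11 calves on the log2 scale, for the 10 genes (upper rows) and the means of 4 marker lists (lower rows); colours stop at -1 and 1. Elevated 5 is low in TNC (-1.68), POSTN (-1.04) and FN1 (-0.51) but high in ELN (0.53), while restricted 2 and restricted 4 are high in ELN (0.90 and 0.67) and in adipocyte markers (1.95 and 1.40).

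ELN encodes tropoelastin, the soluble subunit of elastin. It ran from 8.88 through a median of 9.53 to 10.16 in elevated calves and was 9.58, 10.53, 9.30, 10.30 and 9.44 in restricted calves. Both groups spread over more than 1 log2 unit and overlapped; restricted 2, restricted 4 and elevated 5 were the 3 highest calves. The log2 difference was -0.37 ± 0.28 (SE; 95% interval -0.99 to 0.25; limma adjusted p = 0.689, exact permutation p = 0.273). It was 0.02 ± 0.26 (SE) without restricted 2 and restricted 4.

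FBN1 encodes fibrillin-1, the backbone of the microfibrils on which elastin is deposited and a store for latent TGF-beta. Elevated calves had 11.41 at the lowest, 11.55 at the median and 11.72 at the highest, and restricted calves had 11.66, 11.88, 11.66, 12.14 and 11.76. Elevated 2 and elevated 4 reached into the restricted range, and the other 4 elevated calves lay below it. The log2 difference of FBN1 was -0.25 ± 0.10 (SE; 95% interval -0.47 to -0.03; limma adjusted p = 0.429; exact permutation p = 0.026). Without restricted 2 and restricted 4 it was -0.13 ± 0.09 (SE).

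FBLN1 and FBLN2 encode fibulins, calcium-binding linkers found in elastic fibres and basement membranes. FBLN1 ran from 10.97 through a median of 11.39 to 11.50 in elevated calves and was 11.39, 11.63, 11.22, 11.47 and 11.36 in restricted calves. Elevated 1 and elevated 6 were its lowest calves, as they were for ELN, and the log2 difference was -0.11 ± 0.11 (SE; 95% interval -0.36 to 0.14; limma adjusted p = 0.768, exact permutation p = 0.359). It was -0.05 without elevated 1, -0.06 without restricted 2, -0.07 without elevated 6 and -0.02 without restricted 2 and restricted 4. FBLN2 ran from 9.70 through a median of 9.75 to 9.91 in elevated calves and was 9.62, 9.73, 9.66, 9.78 and 9.74 in restricted calves. Its log2 difference was 0.08 ± 0.07 (SE), and the 95% interval of -0.07 to 0.23 corresponds to 0.950 to 1.17 times the restricted level (limma adjusted p = 0.738, exact permutation p = 0.169).

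**Figure D3:**
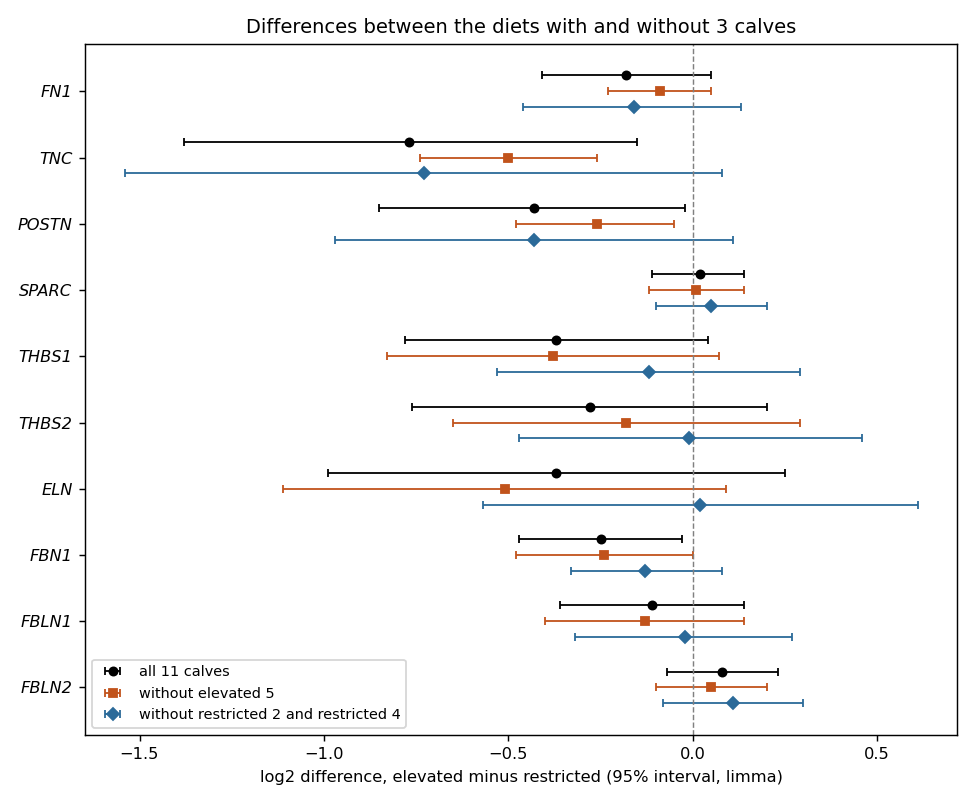
Log2 difference, elevated minus restricted, with its 95% limma interval for the 10 genes over all 11 calves (black), without elevated 5 (orange) and without restricted 2 and restricted 4 (blue). For TNC the estimates are -0.77, -0.50 and -0.73, and for ELN they are -0.37, -0.51 and 0.02.

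Some of the genes varied together across calves. The permutations were made over both diets, and TNC, POSTN and FN1 all averaged lower in elevated calves. A shared difference between the diets and variation within a diet are therefore not separated in these tests. Within elevated calves no pair passed after adjustment (smallest adjusted exact permutation p = 0.125). Of the 45 pairs, 4 passed a permutation test of Pearson's r after adjustment over the pairs, and 2 of these also passed with Spearman's rho. FN1 and THBS2 passed by rho alone (0.84, permutation p = 0.00232, adjusted p = 0.0348; r = 0.73, permutation p = 0.0124, adjusted p = 0.091; 0.74 without elevated 3 and elevated 5). TNC and FN1 were the closest pair (r = 0.98, permutation p = 3e-05, adjusted p = 0.00135; rho = 0.88, permutation p = 0.00056, adjusted p = 0.0137; 11 calves). Without the calves farthest from the FN1 median, elevated 3 and elevated 5, their r was 0.90. Within elevated calves it was 1.00 (exact permutation p = 0.00278, adjusted p = 0.125), with elevated 5, the lowest calf in both genes, included. Over the 10 calves without elevated 5, left out after the data were seen, it was 0.92. POSTN went with TNC (r = 0.96, permutation p = 0.0005, adjusted p = 0.00945; rho = 0.75, permutation p = 0.0113, adjusted p = 0.0523) and with FN1 (r = 0.95, permutation p = 0.00079, adjusted p = 0.00945; rho = 0.76, permutation p = 0.00852, adjusted p = 0.0523). Without the 2 farthest calves, elevated 5 and elevated 1 or elevated 3, these were 0.72 and 0.70.

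ELN and FBLN1 formed the other close pair (r = 0.86, permutation p = 0.00084, adjusted p = 0.00945; rho = 0.88, permutation p = 0.00061, adjusted p = 0.0137). Their r was 0.82 without restricted 2 and restricted 4, and also 0.82 within elevated calves (exact permutation p = 0.0472, adjusted p = 0.257). ELN and TNC, by contrast, had r = -0.07 (permutation p = 0.838, adjusted p = 0.877; rho = 0.25, permutation p = 0.47, adjusted p = 0.586). With elevated 1 and elevated 5 left out that r was 0.35.

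The genes were then set against the mean of the adipocyte markers and of the fibroblast markers in each calf, 20 relations in all, of which 7 passed after adjustment by Pearson's r. THBS1 followed the adipocyte mean most closely (r = 0.89, permutation p = 0.00064, adjusted p = 0.0064; rho = 0.73, permutation p = 0.0145, adjusted p = 0.0937). Its r was 0.73 without restricted 2 and restricted 4 and 0.76 within elevated calves (exact permutation p = 0.0847, adjusted p = 0.339). FBN1, THBS2 and ELN also passed by Pearson's r against the adipocyte mean, at 0.76, 0.74 and 0.73 (adjusted permutation p = 0.0301 each; rho = 0.61, 0.63 and 0.52, permutation p = 0.0497, 0.0434 and 0.106, adjusted p = 0.11, 0.108 and 0.212). Without restricted 2 and restricted 4 these r values were 0.41, 0.34 and 0.25. Those calves held the highest adipocyte means, so leaving them out also narrowed the range of that mean. Within elevated calves r was 0.40 for FBN1, 0.37 for THBS2 and 0.30 for ELN (exact permutation p = 0.424, 0.481 and 0.557, adjusted p = 0.903 each). The r values over all calves span both diets, and THBS1, FBN1, THBS2, ELN and the adipocyte mean all averaged lower in elevated calves.

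TNC had r = 0.37 with the adipocyte mean (permutation p = 0.255, adjusted p = 0.448; rho = 0.67, permutation p = 0.0281, adjusted p = 0.0937), and 0.11 without restricted 2 and restricted 4. That value depended on elevated 5: without this calf, left out after the data were seen, r was 0.80 over 10 calves, and for FN1 it was likewise 0.80 (0.31 with all calves). Those calves span both diets, and TNC, FN1 and the adipocyte mean all averaged lower in elevated calves. Within the 6 elevated calves, elevated 5 included, r was -0.08 for TNC and -0.05 for FN1 (exact permutation p = 0.903 and 0.949, adjusted p = 0.96 each). In a limma fit that left out elevated 5 and adjusted for the adipocyte mean, also chosen after the data were seen, the difference of TNC was -0.35 ± 0.11 (SE; adjusted p = 0.522). With all 11 calves and the same adjustment it was -0.76 ± 0.35 (SE; limma adjusted p = 0.565). Adjusted in that way over all calves, the log2 difference of FBN1 was -0.13 ± 0.11 (SE; limma adjusted p = 0.737). Under the same adjustment THBS1 differed by -0.01, THBS2 by 0.06, ELN by 0.07 and FBLN1 by 0.01, while POSTN differed by -0.45 and FN1 by -0.17.

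SPARC, whose values spanned only 13.20 to 13.33 near the top of the scale, where array signals compress, followed the fibroblast mean (r = 0.89, permutation p = 0.00018, adjusted p = 0.0036; rho = 0.84, permutation p = 0.00206, adjusted p = 0.0412). It was 0.80 without the calves at the low end, elevated 6 and restricted 1, and 0.91 within elevated calves (exact permutation p = 0.00833, adjusted p = 0.167). FBLN2 (r = 0.76, permutation p = 0.00522, adjusted p = 0.0301; rho = 0.69, permutation p = 0.0224, adjusted p = 0.0937) and ELN (r = 0.74, permutation p = 0.00996, adjusted p = 0.0301; rho = 0.75, permutation p = 0.0112, adjusted p = 0.0937) went the same way. Without elevated 6 and restricted 1, r was 0.65 for FBLN2 and 0.86 for ELN. The fibroblast mean itself was 10.54 ± 0.14 (SD) over the 6 elevated calves, against 10.48 ± 0.20 (SD) over the 5 restricted calves, with 6 of 15 markers lower, a log2 difference of 0.05. TNC, FN1 and POSTN had r of -0.29, -0.25 and -0.24 with it (permutation p = 0.42, 0.528 and 0.516, adjusted p = 0.525, 0.556 and 0.556; rho = -0.02, 0.08 and -0.18, permutation p = 0.967, 0.818 and 0.594, adjusted p = 0.967, 0.861 and 0.699). Without elevated 6 and restricted 1 these were -0.26, -0.26 and -0.15. The fibroblast mean joins markers of opposite direction: 9 of 15 were higher in elevated calves, and log2 differences ran from -0.35 to 0.47. At an unadjusted limma p under 0.05, PDGFRB (-0.35) and THY1 (-0.28) were lower (adjusted p = 0.353 and 0.423) and 0 were higher. Over all probe sets 5.33% were lower and 4.95% higher at that level.

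**Figure D4:**
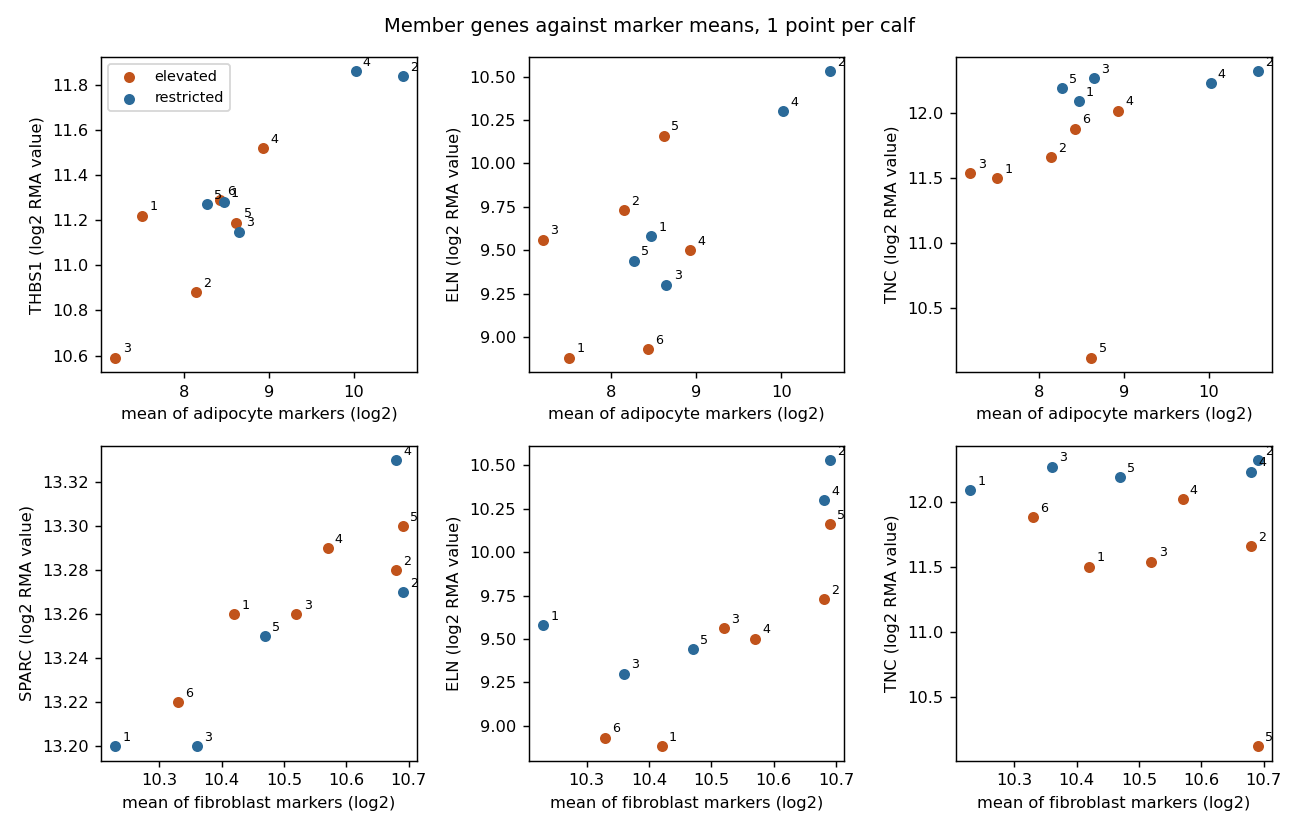
Log2 RMA value of a gene (vertical axes) against the mean log2 level of adipocyte markers (upper panels, for THBS1, ELN and TNC) or fibroblast markers (lower panels, for SPARC, ELN and TNC); each numbered point is 1 elevated (orange) or restricted (blue) calf. THBS1 rises with the adipocyte mean (r = 0.89), SPARC with the fibroblast mean (r = 0.89), and elevated 5 lies far below the other calves for TNC.

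The genes whose pattern over the 11 calves was most like each member were sought among 10522 named genes above the median level, by Pearson's r, as a description. ADAM12, a membrane metalloproteinase, stood among the 3 most like TNC (0.98), FN1 (0.98) and POSTN (0.96). The third gene for TNC was the integrin subunit gene ITGAV (0.98), and for POSTN the list held VCAN, of the proteoglycan versican (0.96), and VIPAS39 (0.96); CDC25A, a cell cycle phosphatase, completed that of FN1 (0.97). Without the 2 calves farthest from the median of the member, ADAM12 stayed at 0.94, 0.83 and 0.89, and CDC25A stood at 0.62.

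The other members had different nearest genes. SPARC was most like OGN (0.94), the small proteoglycan osteoglycin, SDK1 (0.93) and DLG2 (0.93). FBLN2 was most like CTHRC1 (0.97), a secreted protein with a short collagen repeat, IGSF10 (0.94) and ZMYM6 (0.94). ELN was most like PIK3R1 (0.97), ABCA9 (0.96) and PORCN (0.95), and FBLN1 like SESN1 (0.91), TSPAN7 (0.90) and KCTD15 (0.89). Those of FBLN1 stood at 0.67, 0.67 and 0.72 without its 2 farthest calves, elevated 1 and elevated 6. FBN1 was nearest to SMAD5 (0.96), a signal carrier of bone morphogenetic proteins, TFPI (0.95) and RHOQ (0.94). THBS1 was nearest to FOXK2 (0.95), the fatty acid-binding protein gene FABP5 (0.94) and PLEKHA8 (0.92), and THBS2 to CA2 (0.96), the prolyl hydroxylase gene P3H1 (0.96) and MFSD12 (0.96).

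Among the other genes of these pathways 0 of 75 listed genes passed the threshold in limma, and 12 did at an unadjusted p under 0.05 (9 lower and 3 higher; 5.33% and 4.95% of all probe sets). Of the receptors of these proteins 14 of 18 had a lower mean in elevated calves, with a median log2 difference of -0.19 (49.2% and 0.0031 over all probe sets), and 4 of 18 were lower at an unadjusted p under 0.05, where 5.33% of all probe sets were. ITGB8, ITGA5 and ITGAV encode integrin subunits that bind fibronectin or latent TGF-beta, and in each all elevated calves lay below all restricted calves, which held for 3 of 18 receptors and for 0.751% of all probe sets. ITGB8 was 8.20, 8.65 and 8.89 at the lowest, median and highest elevated calf and 9.24, 9.32, 9.25, 9.24 and 9.17 in restricted calves. Its log2 difference was -0.65 ± 0.13 (SE; limma adjusted p = 0.183). ITGA5, which with integrin beta 1 forms the main fibronectin receptor, had a mean of 9.66 ± 0.21 (SD) over the 6 elevated calves, against 10.09 ± 0.16 (SD) over the 5 restricted calves (log2 difference -0.43; limma adjusted p = 0.293). ITGAV differed by -0.27 and the syndecan gene SDC3, which lay below the array medians in all calves, by -0.24 on the log2 scale (limma adjusted p = 0.423 and 0.435), and elevated 5 held the lowest ITGAV value, 9.84. CD36, a thrombospondin receptor that is also an adipocyte marker, differed by -1.04 (limma adjusted p = 0.5).

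Other matricellular genes and the genes of elastic fibre assembly were split in direction. Of 29 other matricellular genes 16 had a lower mean in elevated calves (median log2 difference -0.04), and of 28 assembly genes 15 did (median -0.02). CCN4, a secreted target of WNT signalling, had a mean of 7.39 ± 0.49 (SD) over the 6 elevated calves, against 8.36 ± 0.34 (SD) over the 5 restricted calves. It differed by -0.98 ± 0.24 on the log2 scale (SE; limma adjusted p = 0.265), and restricted 2 lay within the elevated range. CCN1, a matricellular product of an immediate early gene, went the other way (0.44 ± 0.14 SE; limma adjusted p = 0.353). COMP, a thrombospondin of cartilage and tendon that lay below the array medians here, differed by -0.34, and NID2, of the basement membrane linker nidogen-2, by -0.35.

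In the assembly list EFEMP1, which encodes fibulin-3, was 10.32, 10.57 and 10.80 at the lowest, median and highest elevated calf and 9.94, 9.83, 9.50, 10.33 and 10.04 in restricted calves. Restricted 4 alone reached the elevated range, and the log2 difference was 0.62 ± 0.14 (SE; limma adjusted p = 0.243), opposite in sign to FBLN7 of the same fibulin family, at -0.54 ± 0.18 (SE; limma adjusted p = 0.359). FBLN5, which tethers elastin to microfibrils and cells, differed by -0.27 and LTBP3, a carrier of latent TGF-beta, by 0.19 (limma adjusted p = 0.569 and 0.47).

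**Figure D5:**
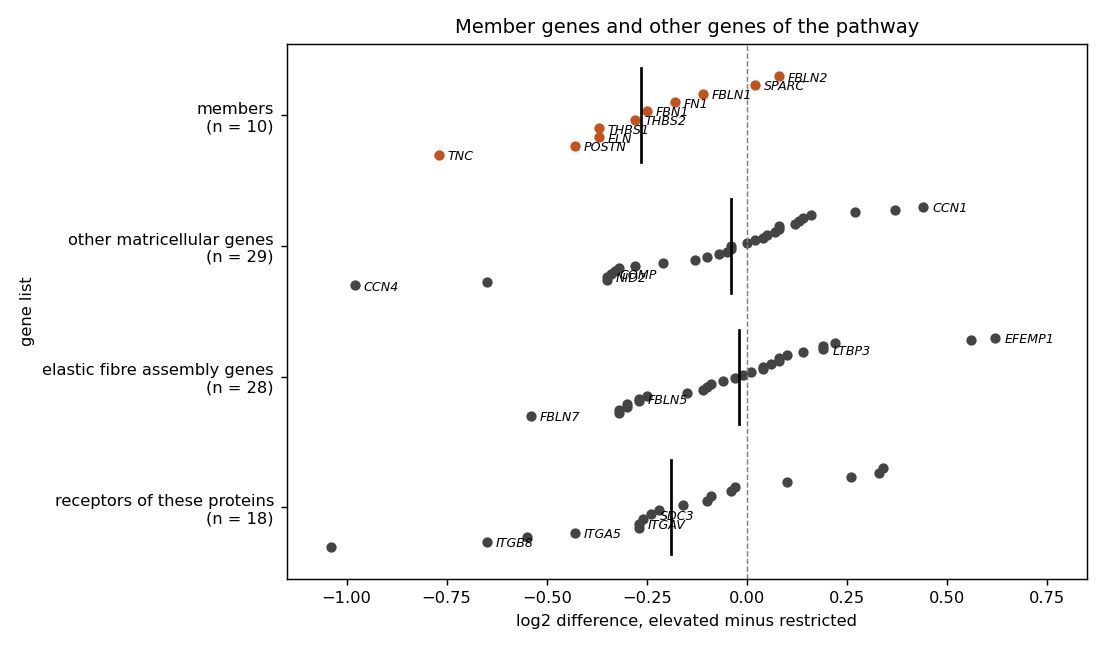
Log2 difference, elevated minus restricted (horizontal axis), of the 10 members (orange) and of the measured genes of 3 related lists (grey, n = 29, 28 and 18), 1 point per gene; vertical bars are list medians and names mark all members and the 4 genes of each other list with the smallest p. The medians are -0.27 for the members, -0.04, -0.02 and -0.19.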

How the data were processed

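RNA of 1 sample per calf was hybridised to 1-colour arrays. Per the labels' protocols, 100 ng of RNA with an integrity number above 7.0 was labelled. The authors deposited 1 log2 value per probe set and array, made with RMA per the submitters' processing notes, which give no version or settings; that the scale is log2 was read from the values. Correlations between arrays ran from 0.964 to 0.990, so no array was a copy. The number of calves limits the precision.

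Probe sets were named from the platform annotation (18790 with 1 symbol, 385 with several, 7598 with none here). Gene numbers of 9 members gave the same symbol in a table of assembly ARS-UCD2.0; FBLN2 had no number. No coordinates or sequences are given. Groups came from the sample titles.

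limma 3.58.1 (R 4.3.3) was run on all probe sets with no filter or covariate. On simulated data for this comparison (26773 probe sets) its recovery was 38.8% for 67 probe sets set to a 1.5-fold change, 71.6% for 67 at 2-fold and 97% for 66 at 4-fold. There were 6 false calls, and 0 calls with no probe set changed. The simulated noise was independent for each probe set and held no shifts shared across the probe sets of a calf. Correlations were tested with 100000 permutations, within elevated calves exactly; those between members were added after the data were seen. Genes named were the members, the 4 genes with the smallest p of each of 3 related lists and the 3 genes most like each member. CD36 was added after its value was seen. The members and lists were chosen with earlier results of these data known. Alternatives are given in the closing section. Pairing by replicate number was checked and not used.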

Additional observations from a re-analysis of the deposited data

Results flagged for a closer look

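Elevated 5 stood far below the other elevated calves in FN1 (12.34), in TNC (10.12) and in the integrin gene ITGAV (9.84). In each, the gap to the nearest elevated calf was a larger share of the group's whole range (0.68, 0.73 and 0.79) than Dixon's 95% criterion allows for 6 samples. In 60 groups of values examined, 3 were so marked, and chance marks about 1 in 20. These 3 genes varied together, so they are not separate observations. Elevated 5 also had the highest skeletal muscle marker mean, 7.05, against 5.35 to 6.43 in the other elevated calves and 5.12 to 5.69 in restricted calves. The part of these markers in the low values was not tested.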

How the results depend on the processing

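None of the 10 genes passed the threshold under any of 24 alternative fits (smallest adjusted p = 0.255, TNC without elevated 5), nor at a threshold of 0.1, and 0 of the related genes passed in those fits. TNC (-0.88 to -0.35), POSTN (-0.51 to -0.19), FN1 (-0.22 to -0.04) and FBN1 (-0.29 to -0.09) kept a negative difference in all 24 fits, and SPARC and FBLN2 a positive one. Fits that changed only the probe sets kept or the variance estimate cannot alter a difference, and others left out just 1 calf. The agreement in sign was thus in part fixed in advance. For SPARC the difference was as small as 0.00414, under quantile normalisation. Signs turned for THBS1, THBS2, ELN and FBLN1, and the cause was not tested. Adjusted for the adipocyte mean, the log2 differences of THBS2, ELN and FBLN1 were 0.06, 0.07 and 0.01, and adjusted for the luminal mean 0.01, 0.04 and 0.02. Under each covariate the adjusted difference was negative for 5 of the 10 genes. ELN differed by 0.02 without restricted 2 and restricted 4, and THBS2 by 0.10 without those calves and elevated 5. Without elevated 5 and with the adipocyte covariate, a fit chosen after seeing the data, THBS1 and THBS2 differed by 0.01 and 0.27. Without elevated 5, also chosen then, the r of FN1, TNC and POSTN with the fibroblast mean was 0.21, 0.04 and 0.14; that of SPARC with the adipocyte mean was -0.11 without restricted 2 and restricted 4.

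Over all probe sets 2 passed the threshold. The count was 1 among probe sets with 1 symbol, 0 with an unmoderated test, 4 with array weights, 0 with the adipocyte covariate (also without elevated 5), 6 with the luminal covariate, 25 without restricted 2 and restricted 4, 15 without those and elevated 5, and 0 to 12 with 1 calf left out. With the replicate number as a block, over replicates 1 to 5, it was 0 and TNC differed by -0.85. Same-numbered calves did not deviate together in all pairs (r from -0.147 to 0.211), so the numbers were taken as names only. No member had several probe sets, so a mean over probe sets was not run. The small number of calves limits what could be detected, and the top of the array scale limits SPARC and may limit POSTN and FN1.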
